A study of Mus musculus with 6 samples.

Results

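This section describes 10 mouse genes of iron handling in bone marrow stromal cells (BMSCs), the adherent marrow cells that can give rise to bone, fat and cartilage cells. The genes are Trf, Tfrc, Steap3, Slc11a2, Ireb2, Fth1, Slc40a1 and Cp, which carry, take up, sense, store or export iron, and Hp and Lcn2, acute-phase proteins that bind haemoglobin and iron-carrying siderophores. They are 10 of 30701 genes with a single-symbol probe set, and all 10 were among the 20190 bright enough to be tested. Members were chosen by gene symbol, and the probe set was selected on its mean over all 6 arrays. Each had only 1 such probe set, so that choice decided nothing. The changes of Hp, Lcn2 and Slc40a1 were already known when the list was put together, so their differences are given as a description, with no p-value.

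Expression was measured on 6 Affymetrix arrays, 3 from mice aged 3 months and 3 from mice aged 18 months. No genotype, strain or treatment other than age is given in the sources used here. Cells from crushed, collagenase-digested femurs were sorted for Sca-1 and CD29 and against CD45 and CD11b, then grown past the first passage, so they are a cultured, selected part of the marrow. Arrays are labelled as biological replicates, but no label ties one to a single animal or culture. The p-values therefore refer to the variation among these 6 arrays, which may be technical, and a batch of culture or hybridisation cannot be told apart from age.

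Cells take up iron bound to transferrin through the transferrin receptor, reduce it in the endosome and pass it to the cytosol, where ferritin stores it and ferroportin exports it. Iron regulatory proteins bind short hairpins in the messenger RNAs of this pathway: when iron is scarce they stabilise the transferrin receptor message and block translation of ferritin, a step that an array of RNA levels does not read. In inflammation, haptoglobin, lipocalin 2 and ceruloplasmin are made as acute-phase proteins, mostly by liver but also by other cells. Marrow is where most body iron is used, since red cell precursors need it for haemoglobin.

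Values are those the authors deposited, taken as log2 from their range, and a difference is aged minus young on that scale. Of the negative control probe sets on the array, 95% had a mean below 7.61, so a level under 7.61 cannot be set apart from background, and no fold is given for a gene with such a mean in either age. All 23 antigenomic background classes, probes that match no mouse sequence, were higher in aged arrays, by 0.01 to 0.29. The 5222 negative controls moved the other way, by a median of -0.26, and the positive controls by a median of -0.15. A rise of up to 0.29 is therefore no larger than what background probes showed. How far single negative controls fell was not computed. The size 0.29, called the background shift below, is used for falls too, but it does not bound the falls of control probes. Calls are from limma at a Benjamini-Hochberg adjusted p under 0.05 over all genes tested.

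Of the 10 genes, Hp, Lcn2, Cp, Steap3 and Fth1 were higher in aged cells and Slc40a1, Tfrc and Ireb2 were lower, while Trf and Slc11a2 did not pass. Among the 7 genes whose change was not known beforehand, 3 were higher and 2 lower. Over all genes tested, 18.4% were called higher and 22.1% lower. The 3 young and 3 aged arrays did not overlap in 5 of those 7 genes (8 of the 10 with Hp, Lcn2 and Slc40a1), beside 51.3% of all genes tested, so lack of overlap alone does not set a gene apart in this comparison. When tested against a difference of 0.3 instead of 0, which 9.83% of all genes passed in either direction, Cp and Tfrc were those of the 7 that passed. The median size of a difference was 0.24 among those 7 genes and 0.12 among all genes tested. With the 3 genes known beforehand it was 0.57, a value that their choice raised.

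**Figure D1:**
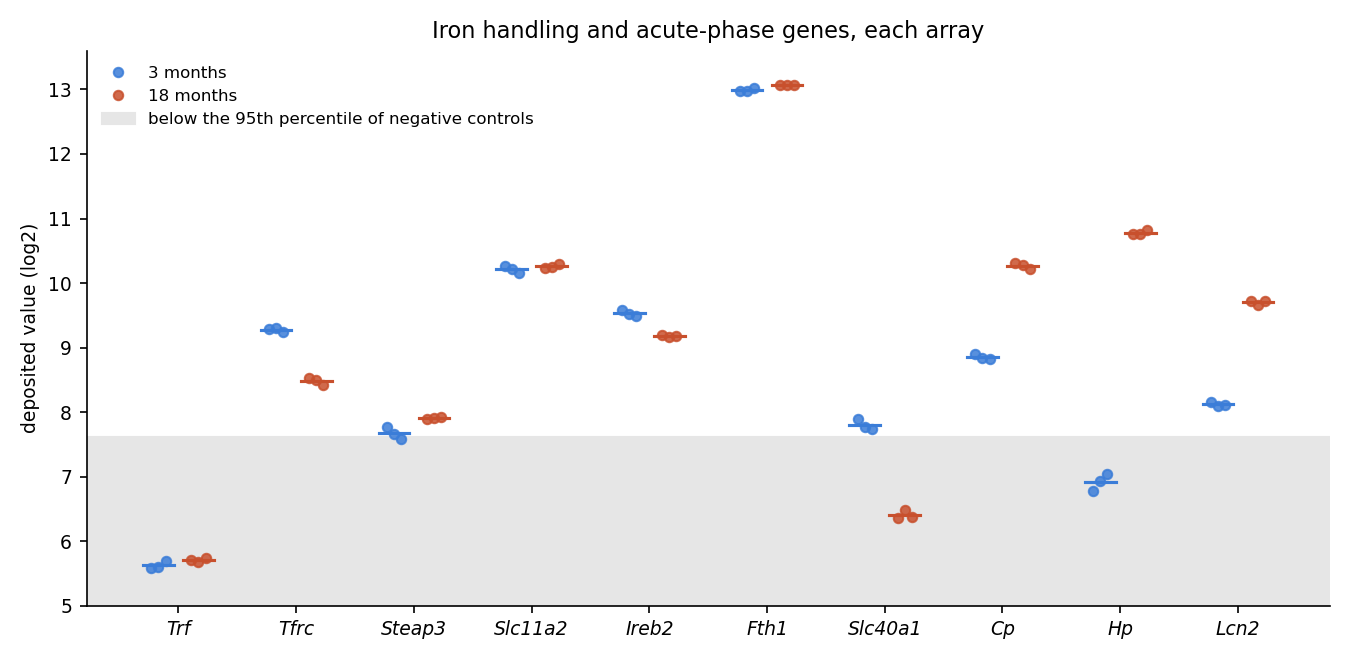
Deposited value, taken as log2 (vertical axis), of each of the 10 genes (horizontal axis) on each array. Blue points are 3 months, red points are 18 months, and a line marks each mean of 3 arrays. The grey area lies below 7.61, the 95th percentile of the negative controls. Cp, Hp and Lcn2 are clearly higher in aged arrays, Tfrc and Slc40a1 are lower, and Trf lies in the grey area at both ages.

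The uptake genes differed from one another. Trf encodes transferrin, the plasma protein that carries ferric iron. Its probe set (TC0900003344.mm.1) read 5.59, 5.60 and 5.69 in young and 5.71, 5.67 and 5.74 in aged arrays. The groups overlapped, and both means lay within the range of the negative controls. The difference was 0.08, with a 95% interval of -0.05 to 0.21 (limma, adjusted p = 0.327).

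Tfrc encodes transferrin receptor 1, the main door for iron into most cells. It (TC1600000447.mm.1) read 9.29, 9.30 and 9.24 in young arrays and 8.53, 8.50 and 8.42 in aged arrays. Every aged array lay below every young one, with 0.71 between the nearest pair. The mean fell from 9.28 ± 0.03 to 8.49 ± 0.06 (SD, n = 3 each). The difference was -0.79 (95% interval -0.88 to -0.70), or 1.73-fold (limma, adjusted p = 8.9e-07). This was the largest fall among the 7 genes whose change was not known beforehand, and it ranked 124 among all falls in the 20190 genes.

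The promoter of Tfrc is shown because this gene had that fall. It is the 250 bases before the first of 2 listed starts (RefSeq, GRCm38.p6, chr16:32608646-32608895, plus strand), with the match to a loose NF-kappaB pattern, described with Lcn2, in capitals.

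Tfrc: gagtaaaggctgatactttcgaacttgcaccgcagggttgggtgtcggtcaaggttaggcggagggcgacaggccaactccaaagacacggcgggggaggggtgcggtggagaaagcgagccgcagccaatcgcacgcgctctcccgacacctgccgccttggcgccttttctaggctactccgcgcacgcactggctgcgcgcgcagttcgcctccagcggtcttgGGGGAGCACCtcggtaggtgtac

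Steap3 encodes the endosomal reductase that turns ferric into ferrous iron, best known from red cell precursors. Its probe set (TC0100002965.mm.1) gave 7.77, 7.66 and 7.59 in young and 7.89, 7.92 and 7.92 in aged cells. The aged arrays were all higher, by 0.12 at the nearest pair, and the young arrays were spread more widely, 1 of them reaching into the negative control range. The mean went from 7.67 ± 0.09 to 7.91 ± 0.02 (SD, n = 3 each), a rise of 0.24 (limma, adjusted p = 0.00542). That is within the 0.29 by which background probes moved, and the rise did not pass when tested against a difference of 0.3.

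Slc11a2 encodes DMT1, the channel-like carrier that moves ferrous iron out of the endosome. On its probe set (TC1500002238.mm.1) the young arrays read 10.26, 10.21 and 10.16 and the aged arrays 10.24, 10.25 and 10.30. The groups overlapped. The difference was 0.05, with a 95% interval of -0.03 to 0.13, which bounds a change in either direction but does not show that there was none (limma, adjusted p = 0.317).

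Ireb2 encodes iron regulatory protein 2, which binds the iron-responsive hairpins and is degraded when iron is plentiful. Its probe set (TC0900000664.mm.1) read 9.58, 9.52 and 9.49 in young and 9.19, 9.16 and 9.18 in aged arrays. All aged arrays were lower, with a gap of 0.30 to the nearest young one. The mean fell from 9.53 ± 0.05 to 9.18 ± 0.01 (SD, n = 3 each), by 0.35 or 1.28-fold (limma, adjusted p = 4.65e-05). The negative controls moved by a median of -0.26, and how far single ones fell was not computed. Whether the fall of Ireb2 exceeds theirs is thus not known, and it did not pass when tested against 0.3.

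Fth1 encodes the heavy chain of ferritin, which oxidises iron for storage. The young arrays read 12.97, 12.98 and 13.02 and the aged arrays 13.07, 13.07 and 13.07 (TC1900000183.mm.1). The groups did not overlap, but the nearest arrays were only 0.05 apart. The rise of 0.08 (from 12.99 ± 0.03 to 13.07 ± 0.0023, SD, n = 3 each) was 1.06-fold and passed narrowly (limma, adjusted p = 0.03). It did not pass in 6 of the 14 alternatives that kept the same null of no difference, among them each fit that left out an aged array and the one without young replicate 2 (adjusted p up to 0.114). Ferritin genes have many processed copies in the mouse genome, so the probe set may read more than 1 gene.

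The exporter and the ferroxidase that serves it were read next. Slc40a1 encodes ferroportin, the only known iron exporter of mammalian cells. Its probe set (TC0100002285.mm.1) read 7.89, 7.77 and 7.73 in young arrays and 6.36, 6.48 and 6.37 in aged arrays. All aged arrays lay within the negative control range and all young arrays a little above it, with 1.25 between the nearest pair. The mean went from 7.80 ± 0.09 to 6.40 ± 0.07 (SD, n = 3 each), a measured difference of -1.39. The young mean was 0.19 above the upper edge of the control range and the aged mean below it (-1.20 from the edge), so the size of the fall below that edge is not resolved.

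Cp encodes ceruloplasmin, the copper ferroxidase that oxidises exported ferrous iron so that transferrin can bind it, and also an acute-phase protein. On its probe set (TC0300000137.mm.1) the young arrays read 8.90, 8.83 and 8.83, and the aged arrays 10.31, 10.27 and 10.22. The gap between the groups, 1.32, was many times the spread within either of them. The mean rose from 8.85 ± 0.04 to 10.27 ± 0.04 (SD, n = 3 each), by 1.41 with an SE of 0.04, or 2.66-fold (limma, adjusted p = 1.61e-08). Cp ranked 236 among all rises, and Lcn2 ranked 189.

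Of the other ferroxidase genes, Heph (hephaestin) was at 4.30 ± 0.04 and 4.32 ± 0.02 and Hephl1 at 4.87 ± 0.05 and 4.80 ± 0.06 (SD, n = 3 each). Both lay within the negative control range and were too dim to be tested, so these probe sets do not tell whether either gene changed.

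Hp encodes haptoglobin, which binds free haemoglobin and so keeps its iron from loss and from microbes. Its probe set (TC0800002905.mm.1) read 6.78, 6.94 and 7.04 in young arrays and 10.76, 10.75 and 10.82 in aged arrays. The young arrays all lay within the negative control range and the aged arrays far above it. The mean went from 6.92 ± 0.13 to 10.78 ± 0.04 (SD, n = 3 each), a measured difference of 3.86. Since the young level is within background, the aged mean is better described as 3.17 above the upper edge of that range.

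Lcn2 encodes lipocalin 2, which binds the siderophores that bacteria use to capture iron. It (TC0200003303.mm.1) read 8.16, 8.09 and 8.11 in young and 9.72, 9.66 and 9.73 in aged arrays. The groups were 1.51 apart at their nearest arrays. Both means, 8.12 ± 0.04 in young and 9.70 ± 0.03 in aged cells (SD, n = 3 each), were above the negative control range. They differed by 1.58 (SE 0.04), or 3.00-fold.

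The 250 bases before the only listed start of Lcn2 (RefSeq, GRCm38.p6, chr2:32387740-32387989, minus strand) are shown because NF-kappaB and C/EBP factors are known to act on this promoter. Capitals mark the match to the loose NF-kappaB pattern.

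Lcn2: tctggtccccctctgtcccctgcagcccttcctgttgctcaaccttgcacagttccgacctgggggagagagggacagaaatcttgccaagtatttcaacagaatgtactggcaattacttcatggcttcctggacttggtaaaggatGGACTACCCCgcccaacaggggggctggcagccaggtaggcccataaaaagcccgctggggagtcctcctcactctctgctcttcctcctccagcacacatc

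Windows were listed for 6 of the 10 genes: Steap3, Lcn2, Cp, Ireb2, Tfrc and Fth1. Both strands of the 250 bases before each start were searched for 3 G's, 5 bases of any kind and 2 C's (NF-kappaB; matches may overlap), TTGCGNAA or TTNCGCAA (C/EBP), TTCNNNGAA (STAT), TGACNNNGC (antioxidant response element) and ACGTG (hypoxia response). The NF-kappaB pattern was found in at least 1 window of each of the 6 genes, risen or fallen, and 45.8% of all 32851 windows hold it. Steap3, Cp, Tfrc and Fth1 have more than 1 window, so this count by gene cannot be set against the share by window. C/EBP, STAT and antioxidant patterns, held by 0.67%, 7.02% and 10.2% of all windows, had no match in these windows. The hypoxia core, in 16.6% of all windows, matched once, in the window of the second Tfrc start. The loop of the iron-responsive hairpin, CAGTGN, was searched in the first 50 bases after each start on the gene's own strand, where 7.08% of all windows hold it. It was found in 1 window of Steap3 and not in those of Tfrc or Fth1. The rest of each message, including its 3' end, was not searched, so this cannot tell whether Tfrc or Fth1 holds the hairpin. A pattern match is no evidence of binding, and the absence of one says only that these letters are not in these bases.

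**Figure D2:**
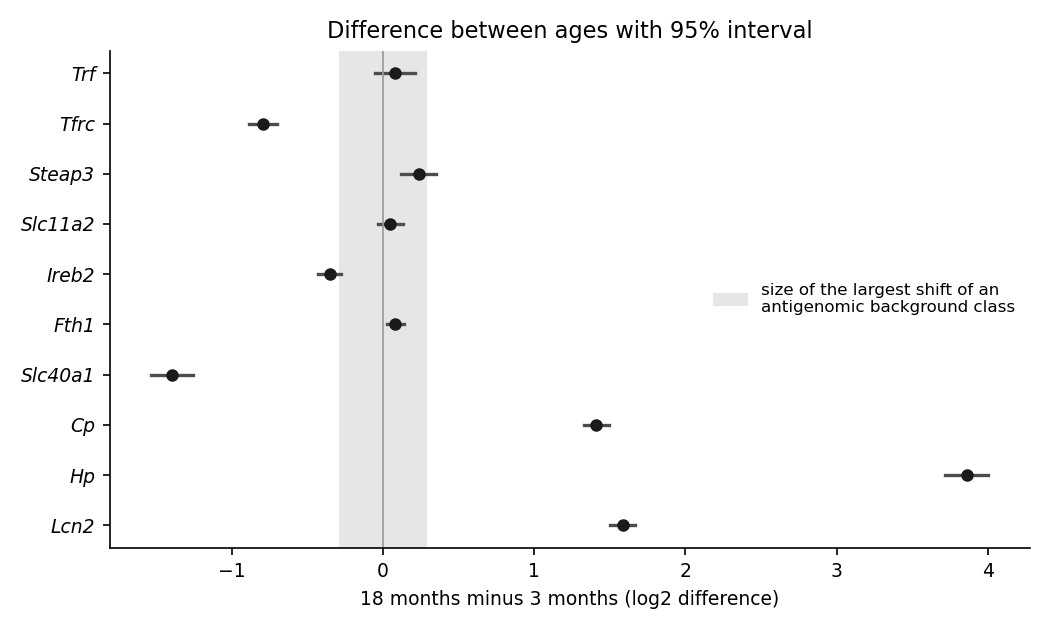
Difference between ages (horizontal axis, 18 months minus 3 months, log2) of each gene (vertical axis), as a point with its 95% interval from limma over 3 arrays per age. The grey band spans 0.29 on either side of 0, the size of the largest shift of a background class, which was a rise. Of the 7 genes whose change was not known beforehand, Cp and Tfrc lie outside the band with their whole intervals, and the interval of Ireb2 reaches into it. Hp at 3.86, Lcn2 and Slc40a1 also lie outside, but their change was known beforehand, so their intervals are a description only.

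The spread between replicates was smaller than the difference in the 8 genes whose groups did not overlap, and about as large as the difference in Trf and Slc11a2. SDs of the 10 genes ran from 0.0023 to 0.13, against a median over all genes of 0.07 in young and 0.04 in aged arrays. In 8 of the 10 genes the young arrays varied more than the aged arrays, as they did in 77.9% of all genes tested.

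The wider pathway was described with 8 lists of other iron and acute-phase genes, 126 genes in all. Of these, 107 were tested, 44 were higher and 16 lower, which is 41.1% and 15% beside the 18.4% and 22.1% over all genes. Of the higher genes, 24 were in the acute-phase lists. The lists were chosen with earlier results of these data known, so these shares are a description and not a test of the lists. Of the tested genes, 3 (Orm1, Orm2 and Il6) passed the filter on dim genes only through their aged level. Without the filter on dim genes 43 of all 118 with a probe set were higher and 16 lower. Over all 30701 genes at that setting 3713 were higher and 4434 lower.

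Of 15 tested genes of iron uptake, 5 were higher and 3 lower, with a median difference of 0.12, beside 0.01 over all genes. Steap4, a reductase of iron and copper known to be induced by inflammatory cytokines, went from 6.66 ± 0.16 to 9.27 ± 0.05 (SD, n = 3 each), a rise of 2.61 from within the negative control range (limma, adjusted p = 2.43e-08). Of its relatives Steap2 rose by 0.27 and Steap1, at 11.38 in young cells, fell by 0.09, both smaller in size than the background shift. The Steap1 call was lost in 7 of 14 alternatives (adjusted p up to 0.138). Scara5, a receptor for ferritin, rose by 1.13, from 6.78 within the negative control range to 7.91, which is 0.31 above its upper edge. Slc39a14 (ZIP14), which takes up iron not bound to transferrin, rose 1.23-fold, by 0.30. The endolysosomal channel gene Mcoln1 fell by 0.35.

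Most receptor genes for the acute-phase proteins were within the negative control range at both ages, where little can be read of them. Lrp2 (megalin), which takes up lipocalin 2 among many ligands, went from 7.36 to 6.28, a fall of 1.09 within the negative control range (limma, adjusted p = 2.09e-06). The other lipocalin 2 receptor gene, Slc22a17, was at 6.82 and 6.94 (adjusted p = 0.167). Cd163, the haptoglobin-haemoglobin receptor of macrophages, was at 5.16 and 5.12 and was too dim to be tested. Lrp1, which takes up haem bound to haemopexin and was above that range, rose by 0.20 (limma, adjusted p = 0.00272), less than the background shift. Tfr2 (6.28 and 6.41, adjusted p = 0.192), Slc11a1 (7.34 and 7.33, adjusted p = 0.891) and Ltf, which encodes lactoferrin (5.75 at both ages, adjusted p = 0.997), did not pass.

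Among 6 tested genes of iron storage, none was higher by limma (0 also at an unadjusted p under 0.05) and 3 were lower, with a median of -0.11. Ftl1, the ferritin light chain, fell from 12.95 ± 0.03 to 12.53 ± 0.02 (SD, n = 3 each), by 0.41 or 1.33-fold (limma, adjusted p = 4.48e-06), whereas Fth1 rose by 0.08. Like Fth1 it has processed copies that its probe set may read. Ncoa4, the receptor that delivers ferritin to the lysosome, fell by 0.29, and the iron chaperone gene Pcbp2 fell by 0.11. Neither fall was larger in size than the background shift. The Pcbp2 call was lost in 5 of 14 alternatives (adjusted p up to 0.326).

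For export and its hormonal control, 2 of 10 tested genes were higher and 2 lower, with a median of 0.01. Hfe, an MHC-like partner of transferrin receptor 1, went from 7.47, within the negative control range, to 8.32, a rise of 0.85 (limma, adjusted p = 8.6e-07). Flvcr1, a haem exporter, fell 1.64-fold, by 0.72. Neo1 (neogenin) fell by 0.38. Abcg2, a transporter of haem and many drugs, rose by 0.46, from 7.24 within the negative control range to 7.69. That is only 0.08 above its upper edge, and the rise did not pass when tested against 0.3. Hamp, which encodes hepcidin, the liver hormone that removes ferroportin from the membrane, was at 6.92 and 6.78 (adjusted p = 0.111).

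Among 7 tested genes of iron and oxygen sensing, 3 were higher and 1 lower, with a median of 0.03. Aco1, which encodes iron regulatory protein 1, differed by 0.03 (95% interval -0.06 to 0.11, limma, adjusted p = 0.659), and Fbxl5, whose product marks iron regulatory proteins for degradation, by 0.00 (-0.08 to 0.08, adjusted p = 0.963). Ireb2 was therefore the only 1 of these 3 to pass. The hypoxia factors Hif1a, Epas1 and Hif3a rose by 0.43, 0.46 and 0.76, the last 2 within the negative control range, and the oxygen sensor gene Egln3 fell by 0.26, also within that range and by less than the background shift. The Egln3 call was lost in 3 of 14 alternatives, without young replicate 2, aged replicate 2 or aged replicate 3 (adjusted p up to 0.0797).

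In haem metabolism 3 of 16 tested genes were higher and 4 lower, with a median of -0.03. Hmox1, haem oxygenase 1, which frees iron from haem, fell from 12.06 ± 0.03 to 10.98 ± 0.03 (SD, n = 3 each), by 1.08 or 2.11-fold (limma, adjusted p = 2.08e-08). Cpox, an enzyme of haem synthesis, fell 1.88-fold, by 0.91. The lysosomal haem transporter gene Slc48a1 and the haem-binding Pgrmc1 fell by 0.19 and 0.21, and Uros, Urod and Hmox2 rose by 0.33, 0.13 and 0.10. The calls of Urod and Hmox2 were each lost in 6 of 14 alternatives, among them those without any 1 of the aged arrays or without young replicate 2 (adjusted p up to 0.102 and 0.129). Except for Hmox1, Cpox and Uros, these differences were no larger than the background shift. Uros, at 6.57 in young and 6.90 in aged cells, lay within the negative control range at both ages. Hpx, haemopexin, which binds free haem as haptoglobin binds haemoglobin, was at 6.34 and 6.32 (adjusted p = 0.78).

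Of 19 tested genes of mitochondrial iron, 7 were higher and 3 lower, with a median of 0.07. Slc25a37 (mitoferrin 1), which brings iron into mitochondria, fell 1.73-fold, by 0.79 (limma, adjusted p = 5.46e-07), beside the fall of 0.79 in Tfrc. The iron-sulphur cluster genes Nfu1, Iscu and Bola3 rose by 0.25, 0.22 and 0.20, and Abcb8 rose by 0.30. Hspa9 and Cisd2 fell by 0.24 and 0.19. All of these but Slc25a37 and Abcb8 differed by no more than the background shift. Abcb8 went from 7.34, within the negative control range, to 7.65, only 0.04 above its upper edge. Cisd2 lay within that range at both ages, and Bola3 in young cells.

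**Figure D3:**
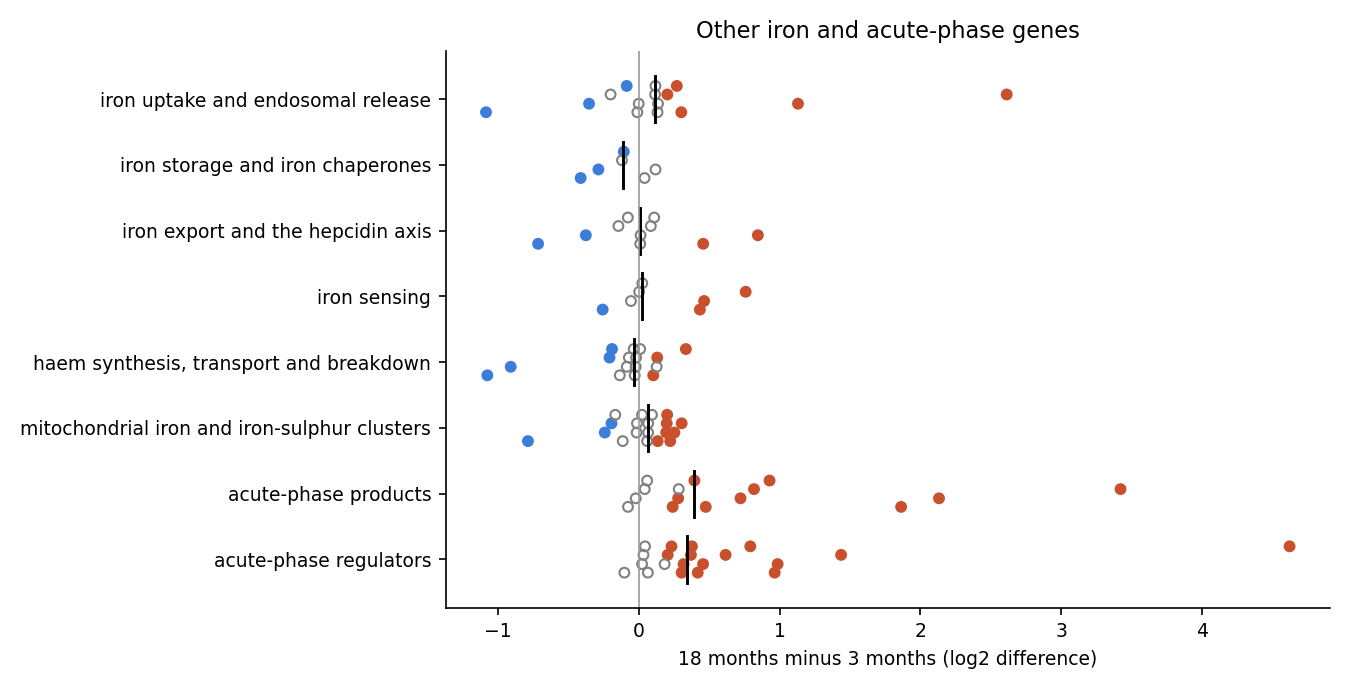
Difference between ages (horizontal axis, log2) of each tested gene of the 8 lists (vertical axis), without the 10 genes above. Filled red and blue points are genes called higher and lower, open points did not pass, and the black line is the list's median. The 2 acute-phase lists have no blue point, and their medians are 0.40 and 0.34.

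Among acute-phase products other than those above, 10 of 15 tested genes were higher and none lower by limma (11 and 0 at an unadjusted p under 0.05), with a median of 0.40. Orm1 and Orm2 passed the filter on dim genes only through their aged level. Without that filter 10 of all 21 with a probe set were higher and none lower, with a median of 0.24. Over all 30701 genes at that setting 3713 were higher and 4434 lower, with a median of 0.01. Serpina3n, a protease inhibitor, went from 5.75 ± 0.20 to 9.17 ± 0.08 (SD, n = 3 each), a rise of 3.42 (limma, adjusted p = 2.2e-08). Its young level lay within the negative control range, and its aged mean was 1.57 above that range, beside 3.17 for Hp. Orm1, which encodes orosomucoid, rose by 2.13 from 5.16 to 7.29, within the negative control range. Lbp, the lipopolysaccharide-binding protein gene, rose by 1.86, from 5.93 within that range to 7.79, which is 0.18 above its upper edge. The metal-binding Mt2 (metallothionein 2) rose 1.76-fold, from a bright 12.63 to 13.44. The 6 products too dim to be tested were Saa4, Crp, Apcs and the fibrinogen genes Fga, Fgb and Fgg. Orm1 and Orm2, and Saa1 and Saa2, are near-identical pairs, so their separate values are uncertain.

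Among acute-phase regulators, 14 of 20 tested genes were higher and none lower by limma (14 and 1 at an unadjusted p under 0.05), with a median of 0.34. Il6 passed the filter only through its aged level. Without the filter 13 of all 22 with a probe set were higher and none lower, with a median of 0.31. The counts over all 30701 genes at that setting were again 3713 higher and 4434 lower. Cebpd and Cebpb, which encode the C/EBP factors that drive acute-phase genes, rose by 0.97 and 0.23, the first within the negative control range and the second by less than the background shift. Stat3 rose from 9.75 ± 0.04 to 10.20 ± 0.02 (SD, n = 3 each), by 0.46 or 1.37-fold (limma, adjusted p = 6.57e-06). The cytokine Il6 rose by 0.99 but stayed dim, at 5.14 and 6.13, while its receptor gene Il6ra rose 1.73-fold and the oncostatin M receptor gene Osmr 1.30-fold. Nfkbia, an inhibitor and target of NF-kappaB, rose 2.71-fold, by 1.44, and Il1rn, the interleukin 1 antagonist, rose by 4.62 from within the negative control range. Il1b and Tnf, the classical inducers, were dim at 4.79 and 4.79 and at 5.88 and 5.95.

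Hp and Lcn2 are also granule genes of neutrophils, ferroportin is abundant in macrophages, and transferrin receptor is abundant in red cell precursors, so markers of those cells were read on the same arrays. None of 13 neutrophil, 14 macrophage, 7 erythroid, 7 adipocyte or 6 endothelial markers had a mean above 7.61 at either age. The sum of the linear values of the neutrophil markers was 536 to 611 in young and 634 to 649 in aged arrays. Camp and Ly6g were called higher (0.25 and 0.90, both within the negative control range), whereas S100a8 (3.06 and 3.35), S100a9 (5.03 and 5.13) and Ltf stayed dim. For macrophages the sums were 722 to 775 and 740 to 763, with no gene called by limma (1 at an unadjusted p under 0.05), and for erythroid markers 446 to 495 and 475 to 478, again with none called and none at an unadjusted p under 0.05. Adult haemoglobin genes were not analysed here.

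Adipocytes also make haptoglobin. Of the 7 adipocyte markers Fabp4 was called higher, from 5.37 to 7.39, and no other was; it passed the filter only through its aged level. Adipoq was at 3.88 and 4.03, too dim to be tested. The sums were 352 to 371 in young and 480 to 495 in aged arrays. Endothelial sums were 281 to 290 and 315 to 324, with Kdr called higher and Tek lower, the latter not without the filter. By contrast 7 of 10 stromal markers were above 7.61 at both ages, among them Pdgfrb, Col1a1 and the sort marker gene Itgb1 at 11.86 and 11.76. The stromal sums were 19236 to 19700 in young and 29025 to 29630 in aged arrays, and the 3 collagen genes made up 85.9% of that increase. Of the 10 stromal markers 6 were called higher, Nt5e (-0.54, limma, adjusted p = 0.000853) and Itgb1 (-0.10, adjusted p = 0.025) were called lower, and Thy1 and Eng did not pass. The other sort markers Ptprc (CD45) and Itgam (CD11b) were at 3.65 and 3.62 and at 5.26 and 5.24, and Ly6a (Sca-1) was not analysed here. In such bulk samples more cells of a type and more RNA per cell cannot be told apart, and the part of cell make-up in the differences was not tested beyond these values.

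**Figure D4:**
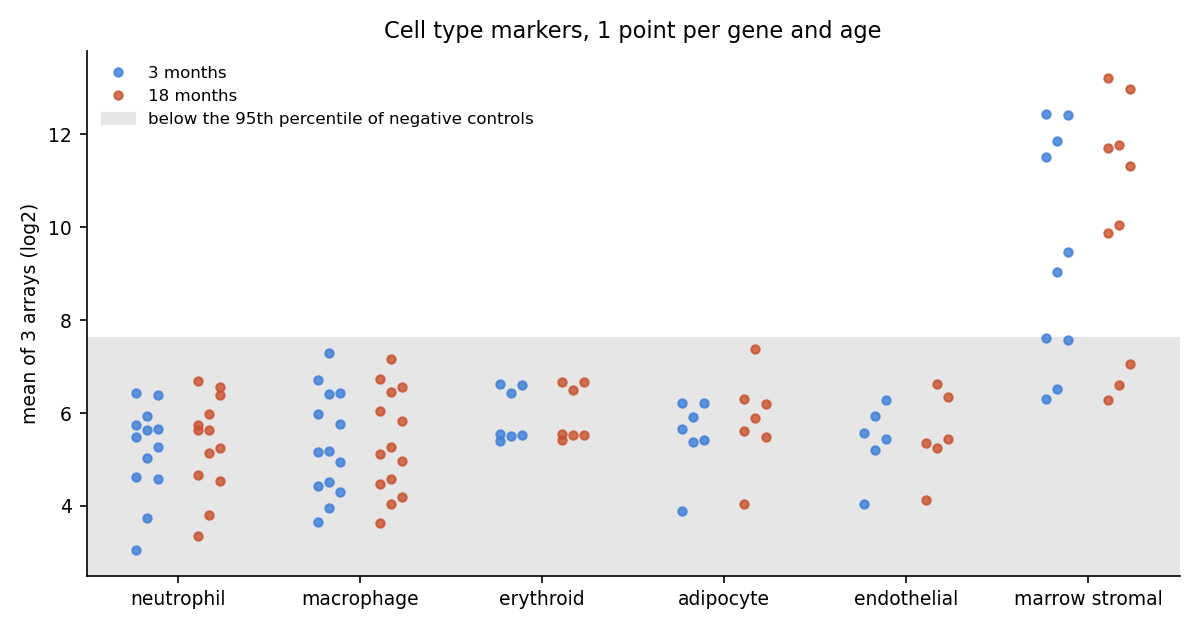
Mean log2 value over 3 arrays (vertical axis) of each marker gene in 6 cell type lists (horizontal axis), with blue points for 3 months and red points for 18 months. The grey area lies below 7.61. Points of all lists but the stromal one stay inside the grey area at both ages.

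Genes whose 6 centred values lay closest to those of a member were also listed, by root mean square difference over the 6 arrays. For Slc40a1 they were Avil, Sdf2l1 and Hyou1, at 0.05, 0.06 and 0.06. For Hp they were the interferon-inducible Phf11b and Iigp1 and the retinaldehyde dehydrogenase gene Aldh1a1, at 0.10, 0.12 and 0.12. For Lcn2 they were Apol9b, the protease inhibitor gene Cst3 and the proteoglycan gene Vcan, at 0.03, 0.04 and 0.04. With 2 groups of arrays this likeness mostly reflects an equal difference between ages.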

How the data were processed

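Per the labels, biotin-labelled RNA of 6 samples was hybridised to Affymetrix arrays. The authors deposited values by probe set, which were taken as log2 expression from their range. MAS5 is the tool named in the submitters' processing notes, and scaling and array build are not given in the sources used here. Values were used as deposited, with no detection calls. The number of arrays limits the precision, and an exact permutation test could not go below p = 0.1.

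Gene symbols came from the platform annotation, updated through RefSeq (GRCm38.p6). Of 32750 listed probe sets 31258 had 1 gene. The brightest was kept per gene, and genes with a mean under 5.40, the median of all transcript clusters, were left out. Ages were compared with limma 3.58.1 (R 4.3.3; lmFit, eBayes with trend, Benjamini-Hochberg over 20190 genes), tested on simulated data. Members, lists and tests were chosen with earlier results of these data known. Named genes are the members, up to 4 per list and direction with the smallest p, and preset partners. Arrays that share a replicate number were not treated as pairs in the main fit. Figures used matplotlib 3.10.9.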

Additional observations from a re-analysis of the deposited data

How the results depend on the processing

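The 10 genes kept their direction in all 15 alternatives (14 for Trf, which the stricter filter removed). Most of these could not have changed it. Settings of the filter, probe set choice, variance model, block or tested difference leave a member's difference as it was. Leaving out 1 array cannot reverse the 8 genes whose groups did not overlap. Tfrc, Cp, Steap3 and Ireb2 passed in each of the 14 alternatives without a minimum difference (limma, adjusted p up to 1.82e-05, 5.28e-07, 0.0267 and 0.000561). Tested against a difference of 0.3, 1169 genes were higher and 816 lower over all genes, 9.83% of those tested in either direction. Among the members 3 were higher and 2 lower, counts that include Hp, Lcn2 and Slc40a1, whose changes were known beforehand. Of the other 7 members only Cp (higher) and Tfrc (lower) passed at this setting. Among the other iron and acute-phase genes 18 were higher and 6 lower. Leaving out 1 array gave 3006 to 4328 genes higher, 3711 to 4963 lower. With the replicate number as a block (replicate block) 3524 were higher and 4204 lower, and Fth1 alone among the members lost its call. Same-numbered arrays deviated from their group means with correlations of -0.05, 0.07 and 0.02. These values show no strong shared deviation by number, but they cannot tell whether same-numbered arrays were handled as pairs. Median centring gave 3958 higher and 3842 lower. Among the other named genes 5 lost their call in some alternative without a minimum difference (Steap1, Pcbp2, Egln3, Urod and Hmox2), and Hamp and Tfr2, which did not pass, passed in 2 and 1. Differences near 0 changed sign in 4 genes, none of which passed in any setting. Leaving out 1 array moved Aco1 between -0.0122 and 0.0482, Fbxl5 between -0.0105 and 0.0162, Ltf between -0.0434 and 0.0296 and Slc11a1 between -0.0367 and 0.0219. Ltf was 0.0088 after quantile normalization and 0.0193 after median centring, and Slc11a1 0.0097 after median centring. Levels under 7.61 limit what can be said of Slc40a1, Hp and Trf.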
